A study of Mus musculus with 2 samples.

Results

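The cells described here are 201 embryonic mouse retinal cells whose open chromatin was rich in POU4F motifs but not in proneural motifs. They were 95 of 890 kept cells (10.7%) in replicate 1 and 106 of 1051 (10.1%) in replicate 2, or 201 of 1941 in all. Each kept cell had a POU4F score, the mean log2 share of its counts on the motifs of POU4F1, POU4F2 and POU4F3, and a proneural score, the same for NEUROD1, NEUROD2, Neurog1 and Atoh1. Members were in the top 15% of the POU4F score of their library and outside the top 25% of the proneural score; they were thus chosen by the same counts that are described here. The working name of the group was ganglion-like cells. The name rests on the POU4F motifs that chose the cells, so they are called POU4F-high cells or members below.

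Chromatin accessibility had been measured with the droplet assay of 10x Genomics in whole wild-type (WT) retina at E14.5, the embryonic stage at which ganglion cells are being born, in a study of regulatory DNA in the genesis of retinal ganglion cells. There were 2 replicate libraries of 1 group, with no other genotype, treatment or time. The labels do not say whether the libraries came from separate animals or litters. In fits with the library as a term, standard errors and p-values cover how far differences between groups of cells vary between the 2 libraries. That variation may be technical. The 95% intervals on shares of cells cover counting error only. The deposited values are counts of 579 transcription factor motifs in each cell barcode.

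Retinal ganglion cells are the projection neurons of the eye and the earliest neurons that retinal progenitors produce. POU4F2 (Brn3b) and its relatives POU4F1 (Brn3a) and POU4F3 (Brn3c) are POU homeodomain factors of differentiating ganglion cells, where POU4F2 acts together with the LIM homeodomain factor ISL1. Proneural factors such as Atoh7, Neurog2 and Neurod1 are basic helix-loop-helix proteins that push progenitors toward neuronal fates, and they bind E-box motifs as cells leave division.

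A motif count is the number of transposase cuts in all peaks that hold the motif. Binding by the factor itself is not measured, and motifs with similar patterns draw on the same peaks. A cut counts for every motif of its peak, so motifs outside both scores are measured partly in the same peaks as the scores. No motif outside the scores had a Pearson correlation above 0.7 with either score across the kept cells of both libraries, and 21 had one above 0.5, among them ISL2 and OLIG2. The sequences of the motifs were not used here.

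The members were as deep as the rest. Their median total was 3563137 motif counts in replicate 1 and 3425372 in replicate 2, against 3518709 and 3535394 in all other kept cells. The correlation of the POU4F score with the log10 cell total was 0.026 and 0.0061. The 10x barcodes overlapped between the libraries: 94 of the 95 members of replicate 1 and 95 of the 106 of replicate 2 had a barcode also present in the other library. There that barcode held a median of 1.77% and 0.783% of the member's own total, and at most 3.31% and 1.74%. Of all kept cells, 872 and 925 had a shared barcode, with medians of 1.77% and 0.789% and maxima of 84.0% and 4.20%; 1 cell of replicate 1, not a member, lay above 50%.

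The POU4F score of kept cells had a zone with fewer cells near the limit of the rule, clearer in replicate 1 than in replicate 2. In replicate 1, 437 kept cells had a score from -10.7 to -10.6, 75 from -10.6 to -10.5 and only 20 from -10.5 to -10.4. The number then rose again to 30, 41 and 51 in the next windows of the same width, up to -10.1. Replicate 2 had 536, 98, 39 and 32 cells from -10.7 up to -10.3, 57 from -10.3 to -10.2 and 40 from -10.2 to -10.1. The 15% limit fell at the upper edge of the window of 20 cells in replicate 1. In replicate 2 it fell inside the window of 39 cells, about as many as the 40 higher up. Members of replicate 2 numbered 8 from -10.5 to -10.4 and 18 from -10.4 to -10.3. A boundary between kinds of cells was not tested. The lowest member score was -10.3946 in replicate 1 and -10.4458 in replicate 2, and the nearest cells outside stood at -10.4008 and -10.4475. On the proneural side, the lowest scores inside the top 25% were -11.3631 and -11.3668, and the next cells below stood at -11.3647 and -11.3668.

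**Figure D1:**
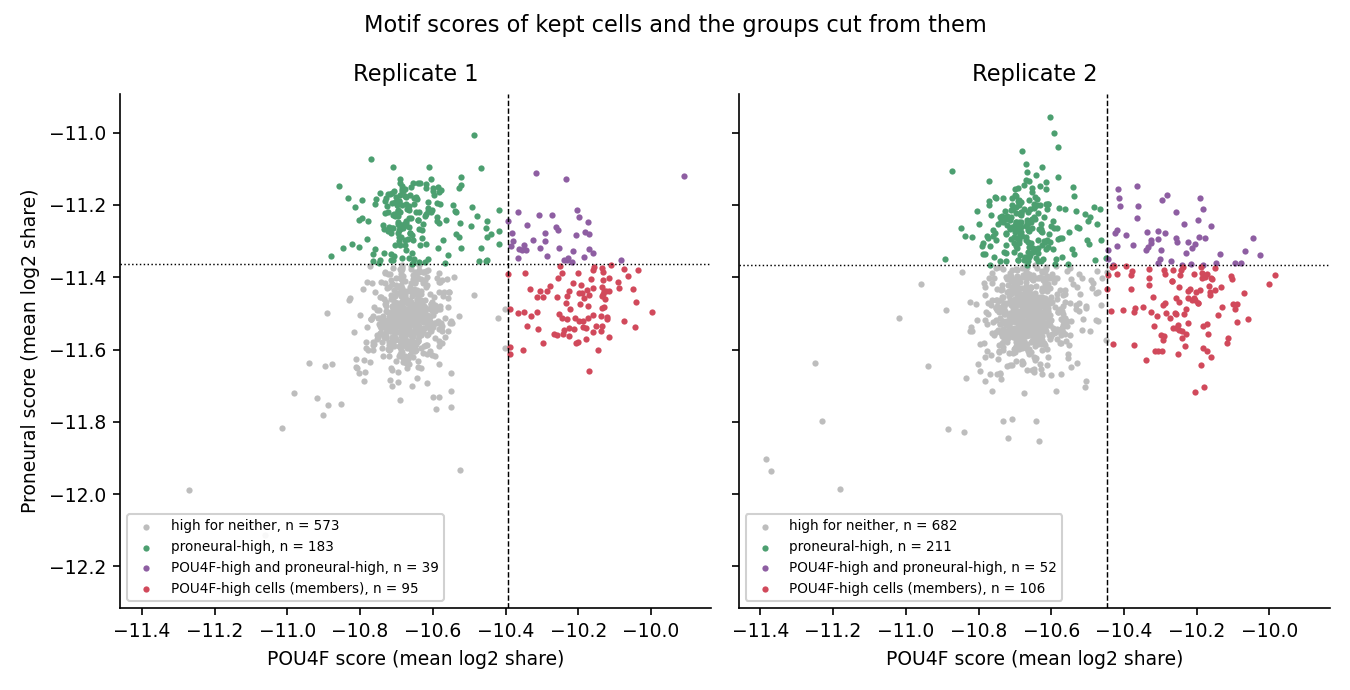
POU4F score (x, mean log2 share of 3 motifs) against proneural score (y, mean log2 share of 4 motifs) for each kept cell of replicate 1 (left, 890 cells) and replicate 2 (right, 1051 cells), coloured by group. Dashed and dotted lines mark the lowest POU4F score inside the top 15% and the lowest proneural score inside the top 25%. Members (red, 95 and 106 cells) lie right of the dashed line and below the dotted line. The dashed line falls where cells are fewer, less clearly so in replicate 2.

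The values that chose the cells are given as a description, with no test. POU4F1 took 93.7 of 100000 motif counts in members of replicate 1 and 90.1 in replicate 2, against 65.0 and 64.3 in all other kept cells. POU4F3 took 112 and 109 in members against 82.3 and 82.6, and POU4F2 took 58.9 and 58.1 against 45.7 and 46.1. All 3 were higher in members in both libraries, and every member was above the median of all kept cells for each. The fitted log2 differences were 0.52 for POU4F1, 0.44 for POU4F3 and 0.36 for POU4F2. The POU4F2 motif, named for the member of the family best known in ganglion cells, thus separated the groups by the least of the 3.

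The members were not poor in proneural motifs. Their median proneural score differed from that of the other cells by 0.0070 in replicate 1 and 7.7e-05 in replicate 2, and 52.6% and 50% of them lay above the median of all kept cells. NEUROD1 took 44.7 and 43.8 of 100000 counts in members, between the 42.0 and 41.0 of cells high for neither score and the 52.4 and 50.8 of cells high for the proneural score alone. The POU4F and proneural scores correlated weakly over all kept cells of each library (Pearson r = 0.16 and 0.15, over 890 and 1051 cells that share a library).

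Of the cells in the top 15% of the POU4F score, 70.9% were members in replicate 1 (95 of 134, Wilson 95% interval 62.7% to 77.9%) and 67.1% in replicate 2 (95% interval 59.4% to 73.9%). These intervals cover counting error only. The other 39 and 52 POU4F-high cells were also in the top 25% of the proneural score and are called double-high cells. A further 183 and 211 cells were high for the proneural score only (proneural-high cells), and 573 and 682 were high for neither.

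Counts were summed over the cells of each group and library, and 572 motifs outside the scores were compared with edgeR's quasi-likelihood test, with the library as a term and Benjamini-Hochberg adjustment over all of them. Against all other kept cells, 214 motifs were higher in members (37.4% of those tested) and 181 lower (31.6%) at an adjusted p under 0.05. Without edgeR's TMM scaling the split was 165 higher and 254 lower. Differences were small: 35 motifs (6.12%) were higher and 16 (2.8%) lower by at least 0.1 on the log2 scale, where 0.1 is a change of 7.18%, and the median over all motifs was 0.0039. With 4 sums the fit had 1 residual degree of freedom, so the SE of a motif leaned on the spread of all motifs. An SE can thus be smaller than the motif's own variation: ZBTB7B stood at 0.23 and 0.31 within the libraries, with an SE of 0.011. Very small p-values are to be read with this limit. Without the library as a term edgeR called 0 motifs, with 108 at an unadjusted p under 0.05 (61 higher, 47 lower), while DESeq2 with that term called 184 higher and 180 lower.

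The 2 libraries gave like folds. Across the 572 motifs, which are not independent replicates, the log2 ratio of members to other cells in replicate 1 correlated with that in replicate 2 (Pearson r = 0.953, Spearman rho = 0.935), and 522 had the same sign. The ratio differed between libraries by more than 0.1 for 5 motifs. HOXC11 was the farthest apart, at 0.05 in replicate 1 and 0.28 in replicate 2, and its share itself was 2.47 in members of replicate 1 and 1.25 of 100000 in replicate 2. HOXC11 is named here after its values were seen.

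**Figure D2:**
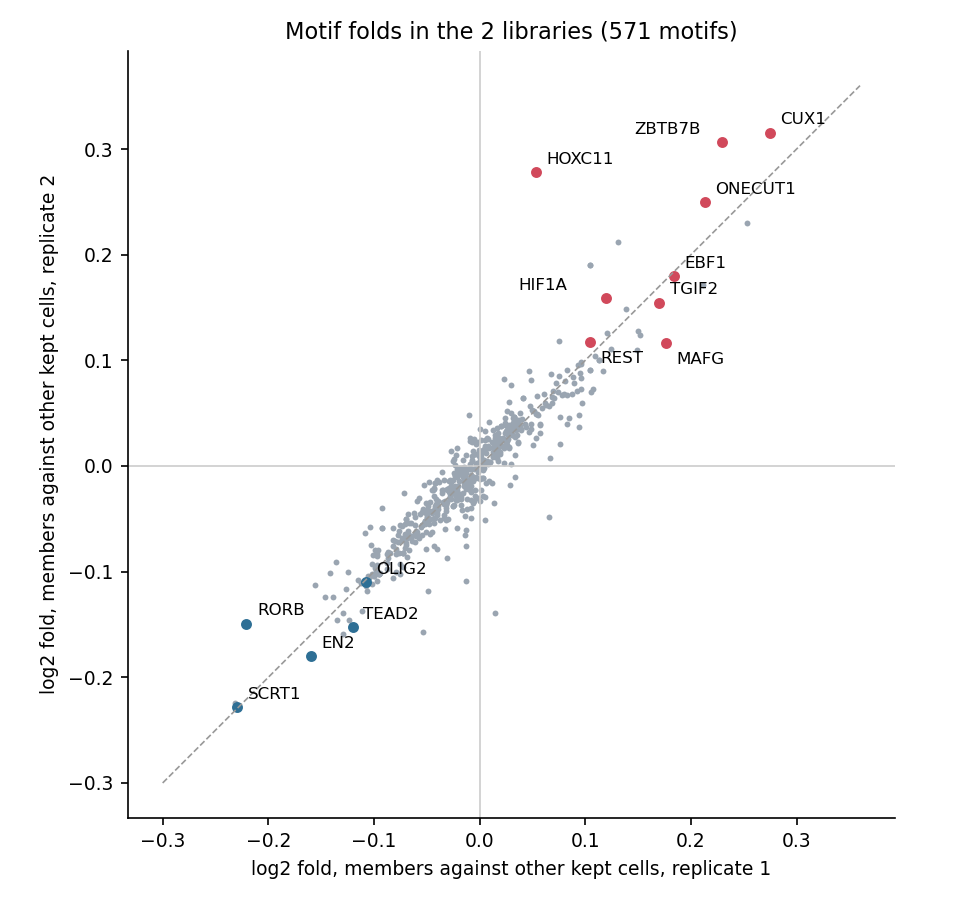
log2 ratio of motif share, members against all other kept cells, in replicate 1 (x) and replicate 2 (y), for the 571 motifs outside the scores with a mean of at least 10 counts per cell; the dashed line is equality. Motifs lie along the line in both directions, from SCRT1 at -0.23 in each library to CUX1 at 0.27 and 0.32, with HOXC11 off it.

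The ganglion cell list held 2 motifs outside the scores, EBF1 and ISL2, and both were higher in members. EBF1, a factor of the COE family expressed in young ganglion cells and other neurons, took 23.9 of 100000 counts in members of replicate 1 and 23.0 in replicate 2, against 21.1 and 20.3 in other cells. Its log2 fold was 0.20 (SE 0.010, adjusted p = 1.83e-64, edgeR), and 95.8% and 93.4% of members lay above the median of all kept cells. ISL2, a LIM homeodomain factor of ganglion cells, took 432 and 421 against 419 and 410. Its log2 fold was 0.06 (SE 0.0065, adjusted p = 4.17e-16), near the size of many other motifs. Its pattern is short and frequent, at a mean of 15300 counts per cell, and the ISL2 motif correlated with the POU4F score at 0.58 and 0.51. The LIM homeodomain list went the other way: 6 of its 7 motifs were lower and 0 higher, with a median of -0.03. It holds other motifs of the class of ISL2, and also ISX, a homeodomain factor outside that class.

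The ONECUT and CUX motifs were higher together. ONECUT1 and ONECUT2 are cut homeodomain factors of early retinal precursors, ganglion cells and horizontal cells; CUX1 and CUX2 are their distant relatives with an overlapping pattern. All 5 motifs of the list were higher in members, with a median log2 fold of 0.19 against 0.0039 for all motifs, and all 5 were also higher without TMM scaling. With an estimated dispersion 4 of the 5 were called, without CUX2. ONECUT1 took 40.8 and 42.0 of 100000 counts in members against 35.2 and 35.3 in other cells. Its log2 fold was 0.25 (SE 0.0084, adjusted p = 2.02e-115), and it was above the median of all kept cells in 88.4% and 93.4% of members. CUX1, a rarer motif, took 7.51 and 7.31 against 6.21 and 5.88, the highest fold of any motif that met the naming rule (0.31, SE 0.017, adjusted p = 3.99e-60).

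The other cut motifs differed less. CUX2 took 3.43 and 3.17 in members against 3.14 and 2.74, a log2 fold of 0.19. ONECUT2 and ONECUT3 had log2 folds of 0.10 and 0.08. The ONECUT motifs were tied across cells: among members ONECUT1 and ONECUT2 shares correlated at 0.90 in replicate 1 (95 cells) and 0.86 in replicate 2 (106 cells), so they are not separate measurements.

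REST binds neuron-restrictive silencer elements and holds neuronal genes down in cells that are not neurons. Its motif took 151 of 100000 counts in members of both libraries against 140 in other cells of both. The log2 fold was 0.13 (SE 0.0066, adjusted p = 7.03e-62), and 94.7% and 93.4% of members were above the median of all kept cells. In the top 15% of all kept cells by REST share were 60.0% of members in replicate 1 (95% interval 49.9% to 69.3%) and 66.0% in replicate 2 (56.6% to 74.4%), against 9.69% and 9.31% of other cells. PROX1, a prospero homeodomain factor best known in horizontal and amacrine cells, has a rare motif at 68.4 counts per cell. It took 2.03 and 2.02 in members against 1.83 and 1.86, a log2 fold of 0.15 (SE 0.033, adjusted p = 7.58e-06); it was not called with an estimated dispersion or by limma.

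Among motifs with at least 10 counts per cell, the lowest in members were those of SCRT1 and SCRT2, zinc finger repressors of the Snail superfamily that are made in newborn neurons and recognise an extended E-box. SCRT1 took 15.2 and 14.9 of 100000 counts in members against 17.8 and 17.5 in other cells. SCRT2 took 9.73 and 9.45 against 11.4 and 11.0. Both fell by 0.21 on the log2 scale (SE 0.012 and 0.014, adjusted p = 5.65e-59 and 4.57e-43), and only 4.21% and 3.77% of members had a SCRT1 share above the median of all kept cells. The 3 other motifs of the list, which have the E-box core in another setting, were higher in members: ID4 at 0.09, SNAI2 at 0.07 and ZEB1 at 0.04 on the log2 scale.

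The motif lists of factors known from progenitors differed among themselves. The TEAD factors carry the output of the Hippo pathway through YAP in dividing cells, and all 4 TEAD motifs were lower in members, with a median log2 fold of -0.06. TEAD2 took 29.1 and 27.6 of 100000 counts in members against 31.7 and 30.7, a log2 fold of -0.12 (SE 0.0092, adjusted p = 5.06e-33). TEAD1, TEAD3 and TEAD4 stood at -0.06, -0.05 and -0.05. By the mean share of the list, 1 of 95 and 2 of 106 members were in the top 15% of kept cells, against 16.7% and 16.5% of other cells.

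All 6 progenitor homeodomain motifs, of which 5 had distinct counts, were lower, with a median of -0.06. LHX2, a selector of the eye field and progenitors, was the lowest of them at -0.07 and RAX, an early eye field factor, the highest at -0.03. Of the SOXC and SOXD list, 4 of 5 were lower, with a median of -0.05. Sox11 took 21.2 and 23.2 in members against 22.3 and 24.6. Sox11 and its close relative SOX4 are known as factors of young neurons, ganglion cells included. Of the 7 SOXB and SOXE motifs, 1 was higher and 2 lower; SOX9, a progenitor and glial factor, stood at -0.05. Of the 7 HES, HEY and RBPJ motifs, which stand for Notch signalling, 1 was higher and 1 lower, and of the 6 motifs of the list of PAX factors and their partners in eye development 2 were higher and 3 lower. Over all motifs 37.4% were higher and 31.6% lower. Without TMM scaling 4 of the 7 Notch motifs were lower.

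The E2F factors switch on genes of DNA replication. Of the 8 E2F and TFDP1 motifs, 3 were lower, E2F7 at -0.08, E2F8 at -0.07 and E2F3 at -0.06, a share near the 31.6% of all motifs called lower. E2F7 was not called among cells of the middle of the depth range. Values for the others were -0.09 for E2F1 (SE 0.045, adjusted p = 0.058), -0.02 for E2F2, -0.01 for TFDP1, 0.0082 for E2F4 and 0.0012 for E2F6, and none of these passed. The signs of E2F4 and E2F6 changed with the scaling. Without TMM scaling 6 of the 8 were lower. MYBL2, a factor of dividing cells, was higher, at 1.43 and 1.35 in members against 1.30 and 1.22 and a log2 fold of 0.16 (SE 0.041, adjusted p = 0.000209). Of the 3 motifs of the MYB list, 1 was higher and 2 lower, with a median of -0.05. Against double-high cells and against proneural-high cells 0 of the 3 were higher.

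MYBL1 had the largest fold of any motif, on the fewest counts. Members had a mean of 2.94 MYBL1 counts per cell in replicate 1 and 3.25 in replicate 2, against 7.85 and 8.20 in other cells, and 30.5% and 25.5% of members had none, against 13.6% and 15.2%. The summed counts behind these shares were 279 and 344 in members. The log2 fold was -1.18 (SE 0.18, adjusted p = 4.85e-10). The double-high cells had as little, at 0.0776 and 0.0914 of 100000 counts beside 0.0859 and 0.102 in members, whereas proneural-high cells had 0.197 and 0.190. At a mean of 7.51 counts per cell this motif fell below the minimum of 10 set for the extremes and is named as the lowest of the MYB list. How many peaks lie behind it was not examined.

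The bHLH motifs split. Of the 15 motifs of the E-protein and other E-box list, 12 were higher in members and 0 lower by edgeR, with a median log2 fold of 0.06. Without TMM scaling 12 were higher and 1 lower. A pair of these motifs had the same counts, so 11 of 14 distinct motifs were higher. The other bHLH list held NEUROG2, the OLIG motifs and 2 BHLHE motifs. In it 4 of 6 were lower and NEUROG2 alone was higher, at 0.04. The 3 OLIG motifs had the same counts, so 2 of 4 distinct motifs were lower, with a median of -0.05. Without TMM scaling 3 of these 4 were lower and NEUROG2 was not called. OLIG2, a factor of a set of neurogenic progenitors, took 23.1 and 24.1 in members against 24.9 and 26.0, and its log2 fold was -0.09 and it is named after its values were seen. BHLHE23 stood at -0.10. These lists share their core pattern with the proneural motifs of the rule.

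All 10 motifs of the MEIS, PKNOX, TGIF and PBX list were higher, by a median of 0.09. MEIS1 and MEIS2 were among the 21 motifs that correlated with a score of the rule above 0.5. Against double-high cells 1 of the 10 was higher and 2 lower, with a median of 0.0026. These TALE homeodomain proteins are cofactors of other homeodomain factors. TGIF2 had the highest fold, with 13.0 and 11.8 of 100000 counts in members against 11.6 and 10.6 (log2 fold 0.18, SE 0.013, adjusted p = 1.49e-36), and MEIS3 the lowest at 0.04. The relatives of POU4F did not follow it. Of 13 other POU motifs, 7 were lower and 1 higher, with a median of -0.04; of the 12 with distinct counts 6 were lower, with a median of -0.02. Pou5f1::Sox2 stood at -0.12, and POU6F1 was higher, at 0.04.

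**Figure D3:**
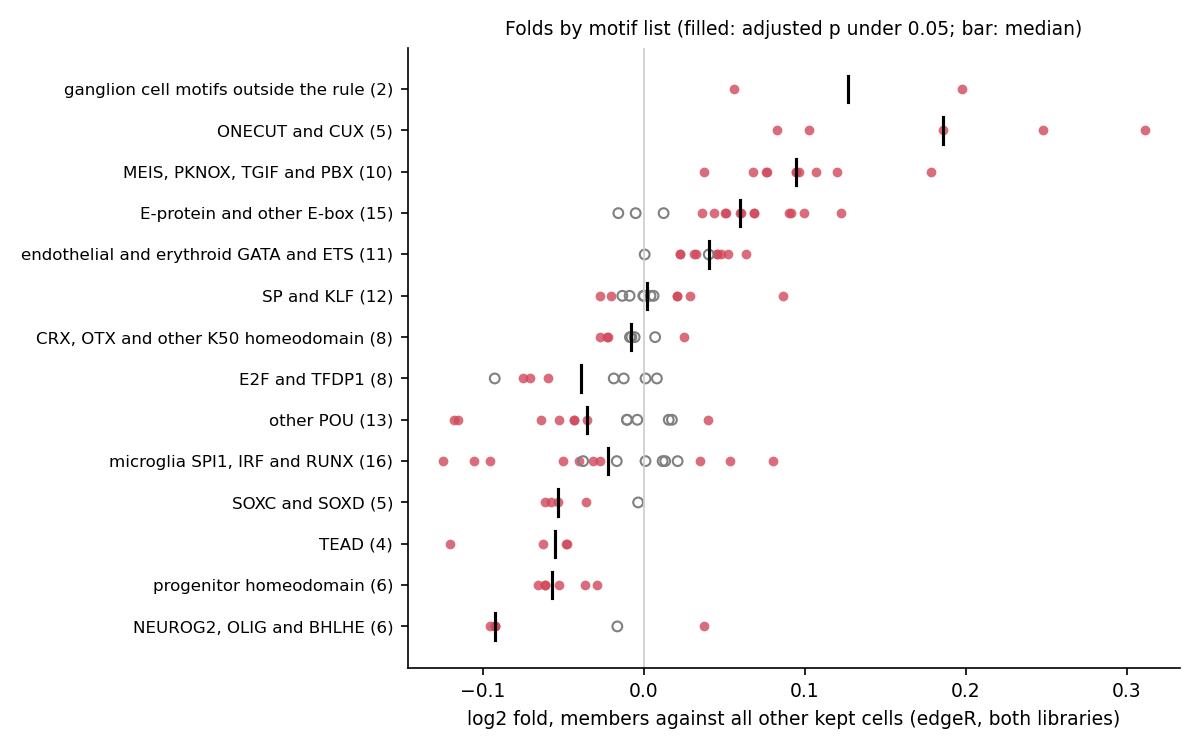
log2 fold of each motif of 14 lists, members against all other kept cells (edgeR, both libraries); filled points passed an adjusted p under 0.05, open points did not, bars are list medians and the number of motifs is in brackets. The ONECUT and CUX list (median 0.19) lies to the right and the list with NEUROG2 and OLIG (median -0.09, 3 OLIG motifs with the same counts) to the left, with most lists near 0.

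Other motifs with large folds came from factors of other tissues or of general chromatin. ZBTB7B, a zinc finger factor whose pattern is rich in G and C, took 18.8 and 19.1 of 100000 counts in members against 16.0 and 15.5 (log2 fold 0.28, SE 0.011). HIF1A, the oxygen-sensing bHLH factor, stood at 0.16 and followed ZBTB7B across members at r = 0.92 in replicate 1 (95 cells) and 0.91 in replicate 2 (106 cells). HOXC12 was higher by 0.21 (not called with an estimated dispersion), PAX7 (the same counts as PAX3) by 0.16 and MAFG by 0.16. On the lower side were RORB, a nuclear receptor of photoreceptor and amacrine precursors, at -0.16, EN2 at -0.15, HOXA2 at -0.13, CEBPA and FOXC1 at -0.12, and CENPB and FOSL1::JUN at -0.12. RORB itself differed between the libraries, at 10.3 and 16.7 in members and 11.99 and 18.5 in other cells, and fell by 0.22 and 0.15 within them.

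Marker lists of other cell types that whole retina could hold were also compared, beside 37.4% higher and 31.6% lower over all motifs. Of the 11 endothelial and erythroid GATA and ETS motifs, 9 were higher in members (7 of 9 with distinct counts), with a median of 0.04, and 4 of the 9 distinct motifs were higher without TMM scaling; GATA2 was the highest at 0.06. By that list, 29.5% and 26.4% of members were in the top 15% of kept cells, against 13.3% and 13.8% of others. Of the 16 microglia motifs, 3 were higher and 7 lower, with IRF8 at 0.08 and CEBPA, among the lowest motifs of all, at -0.12. IRF8 was not called by DESeq2 or limma. All 4 MITF and TFE motifs of pigment epithelium were higher by a median of 0.05. The part of such cells in the results was not tested. Of the 12 SP and KLF motifs, which stand for promoters, 4 were higher and 2 lower with a median of 0.0022, and without TMM scaling the median was -0.01 with 2 higher and 7 lower; Klf1 stood at 0.09 and KLF14 at -0.03.

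The double-high cells were the nearest group to the members. Against them 70 of 572 motifs were higher in members (12.2%) and 67 lower (11.7%), of which 8 (1.4%) and 11 (1.92%) by at least 0.1. These 4-group fits used 8 sums with 3 residual degrees of freedom. All of these calls were lost without the library as a term, where edgeR called 0 (48 at an unadjusted p under 0.05), and with an estimated dispersion, where it also called 0 (6 higher and 1 lower at an unadjusted p under 0.05). DESeq2 called 118 higher and 124 lower. ONECUT1 was higher in members by 0.15 (SE 0.017, adjusted p = 3.05e-05), with 36.7 and 38.2 of 100000 counts in double-high cells beside the 40.8 and 42.0 of members. ONECUT2, ONECUT3 and CUX1 were also higher, by 0.07, 0.06 and 0.11, and CUX2 was not called (0.05, adjusted p = 0.41). EBF1 was higher by 0.07 and REST by 0.05. SCRT1 and SCRT2 were lower, at -0.09 and -0.11.

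The E-box lists set the members apart from the double-high cells in the other direction, as the rule would have it: of the 14 distinct motifs of the E-protein list 0 were higher and 8 lower, and of the 4 distinct motifs of the OLIG list 2 were lower. TGIF2, with 14.0 and 12.5 in double-high cells, was lower in members, at -0.08. Of the TEAD motifs, 2 of 4 were higher in members with TMM scaling and 1 was lower, with 0 higher, without it. Of the E2F and TFDP1 motifs 0 of 8 were called in either direction against this group by edgeR.

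Against proneural-high cells, 179 motifs were higher in members (31.3%) and 201 lower (35.1%), of which 29 (5.07%) and 25 (4.37%) by at least 0.1, and without TMM scaling 130 and 247. With an estimated dispersion edgeR called 31 and 24, and without the library as a term 34 and 50. All 5 ONECUT and CUX motifs were higher, by a median of 0.13. All 8 motifs of the CRX, OTX and other K50 homeodomain list, which marks photoreceptor precursors, were lower, with a median of -0.07. OTX1 took 130 and 131 of 100000 counts in proneural-high cells and 124 in members of both libraries. By this list 0 of 95 members in replicate 1, which allows a share of up to 3.16%, and 1.89% in replicate 2 were in the top 15% of kept cells, against 51.9% and 51.7% of proneural-high cells. Of the TEAD motifs, 0 were higher and 1 of 4 lower than in this group, with a median of -0.00069 and TEAD2 the lowest at -0.08. SCRT1 was lower, at -0.22.

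Against cells high for neither score, 227 motifs were higher in members (39.7%) and 195 lower (34.1%), of which 50 (8.74%) and 25 (4.37%) by at least 0.1, and without TMM scaling 172 and 263. Without the library as a term edgeR called 72 and 60, and with an estimated dispersion 239 and 214. Here the ONECUT and CUX median was 0.21, that of the MEIS list 0.11 with all 10 higher, and that of the TEAD list -0.08 with all 4 lower. These comparisons share the members' sums, so their calls are not independent of each other.

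**Figure D4:**
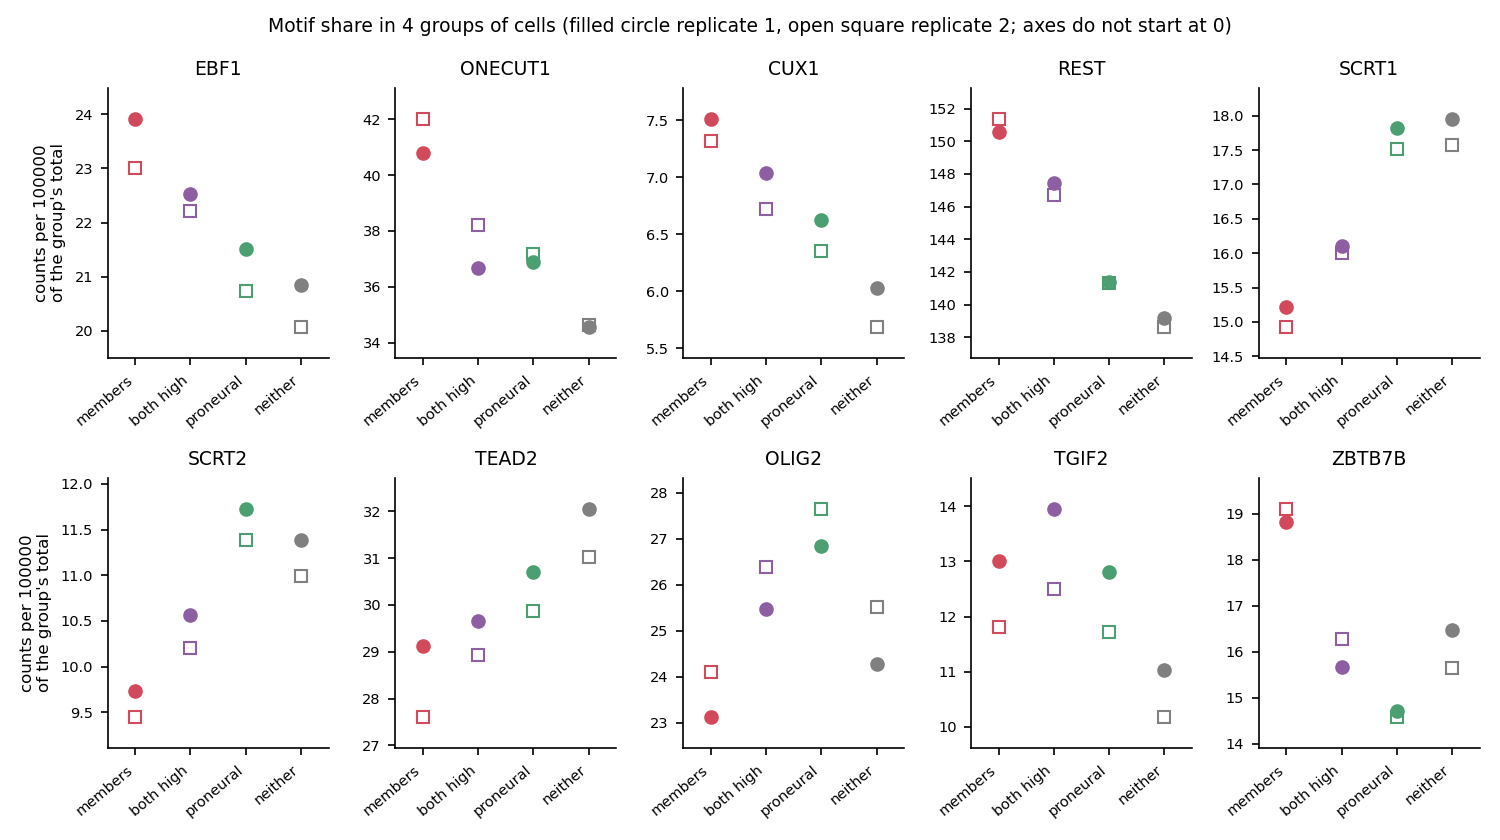
Share of 10 motifs (counts per 100000 of a group's total) in members, double-high, proneural-high and neither-high cells, for replicate 1 (filled circles) and replicate 2 (open squares). EBF1, ONECUT1, CUX1, REST and ZBTB7B are highest and SCRT1, SCRT2 and TEAD2 lowest in members in each library, whereas TGIF2 is highest in double-high cells and OLIG2 in proneural-high cells. With TMM scaling TEAD2 was not called against double-high cells (log2 fold -0.04).

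In all, 55 motifs (9.62% of 572) were higher in members than in each of the 3 other groups, 26 of them by at least 0.05 in each comparison, and 43 (7.52%) were lower than in each, 21 by at least 0.05. These counts need a call against double-high cells, and both were 0 with an estimated dispersion and without the library as a term. Without TMM scaling they were 40 and 79, by DESeq2 81 and 82, and by limma 35 and 93. Among the higher were ZBTB7B, ONECUT1, CUX1, ONECUT2, EBF1, HIF1A, MAFG and BARHL2, a homeodomain factor of ganglion and amacrine cells with 11.9 and 12.8 of 100000 counts in members against 11.2 and 12.2 in other cells. INSM1, a zinc finger factor of cells leaving division, was among them too, at 80.2 and 85.5 in members against 77.5 and 82.4, and is named after its values were seen. Among the lower were SCRT1, SCRT2, OLIG2, RORB, CENPB, LHX2 and LHX6, a LIM homeodomain factor at -0.09.

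The motifs were also followed along the POU4F score. Cells outside the top 25% of the proneural score were placed in 6 bins of POU4F score, the highest being the members. POU4F1 climbed through the lower bins of replicate 1, from -0.15 on the log2 scale relative to all kept cells in the lowest 172 cells to -0.01 in the 83 cells just below the members, and reached 0.47 in members. Most of its span thus lay in the last step. ONECUT1 climbed likewise, from -0.07 to -0.02 over the same bins and to 0.19 in members. EBF1 stayed between -0.04 and -0.03 and reached 0.16. SCRT1 went from 0.05 to -0.0006 and then to -0.21. TEAD2 lay between 0.02 and 0.04 in the 5 lower bins and at -0.11 in members.

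Replicate 2 gave the same shape. In it ONECUT1 went from -0.07 to -0.03 and then to 0.23, EBF1 stood at -0.05 in the 113 cells just below the members and at 0.16 in them, and SCRT1 went from 0.04 to 0.01 and then to -0.21. REST fell slightly over the lower bins, from 0.0063 to -0.04, before standing at 0.11 in members. ZBTB7B had another shape: it was as high in the cells of lowest POU4F score (0.31 and 0.25) as in members (0.21 and 0.28), and at -0.16 and -0.11 just below the members. The bins are cut at percentiles of the score and differ in score width, and the POU4F motifs themselves moved most in the last step. The size of that step for another motif therefore cannot show a switch at the limit of the rule. The bins are a description, with no test.

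**Figure D5:**
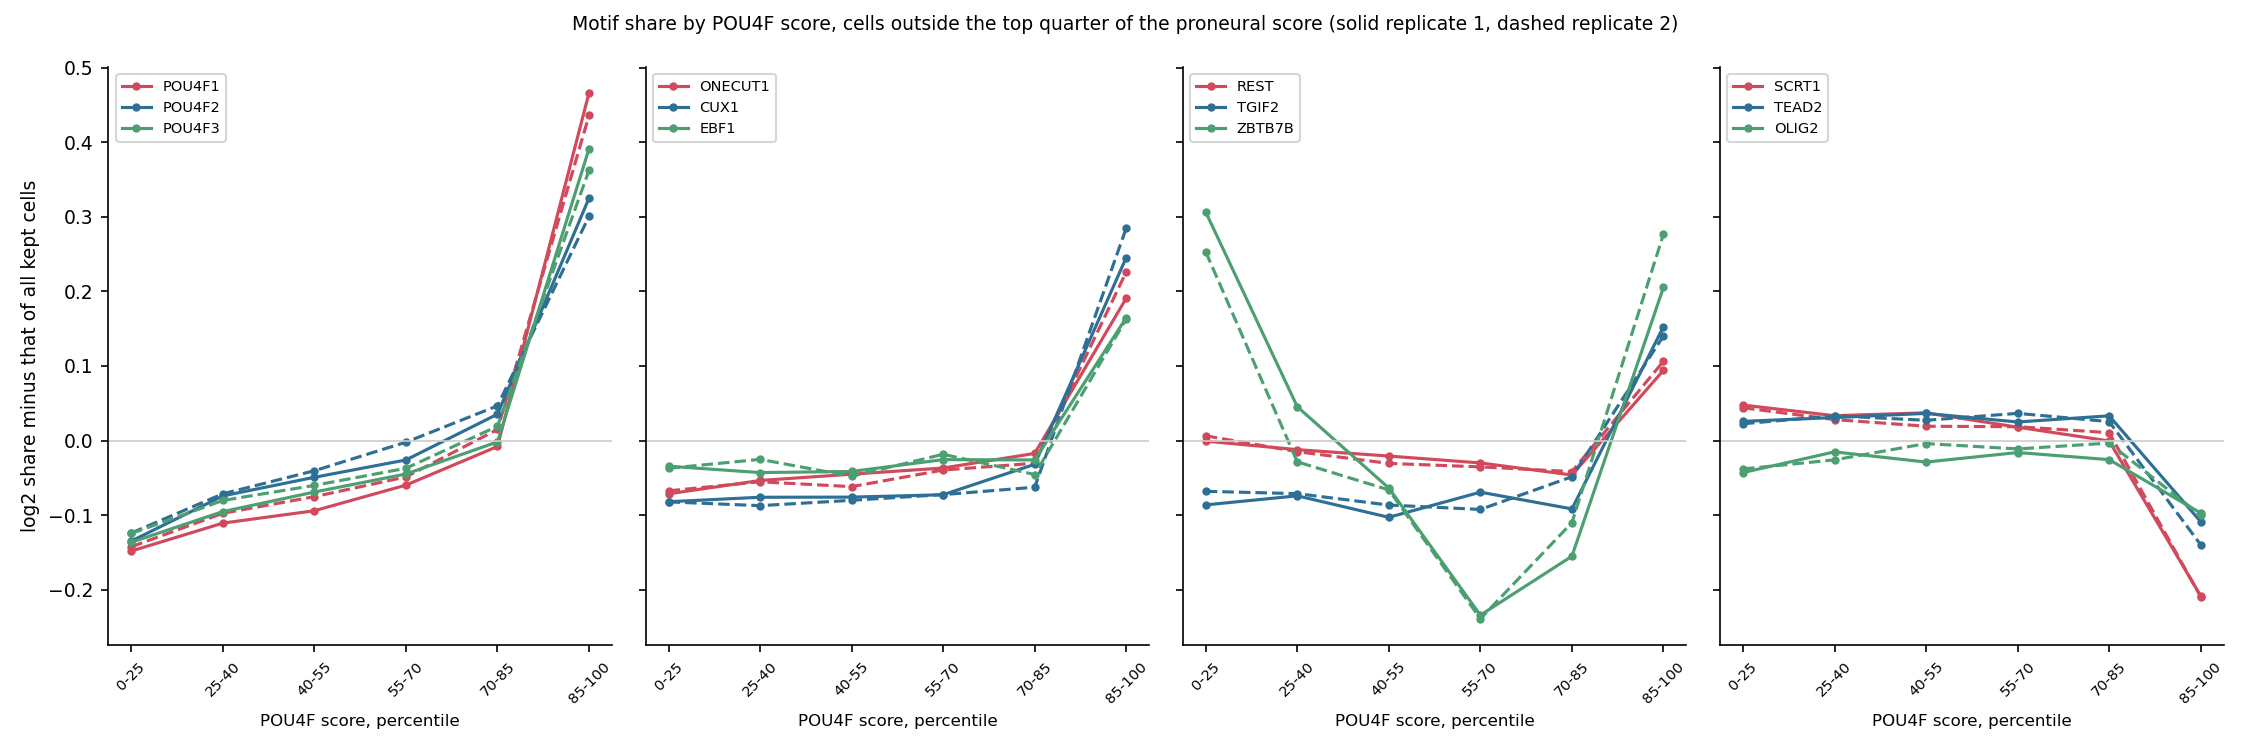
log2 share of 12 motifs relative to all kept cells (y) in 6 bins of POU4F score percentile (x), for cells outside the top 25% of the proneural score; solid lines are replicate 1 and dashed lines replicate 2, and the last bin holds the members. The POU4F motifs (left), which define the axis, change mainly between the last 2 bins, as the bins are cut at percentiles and differ in score width. ONECUT1, CUX1, EBF1, REST, SCRT1 and TEAD2 also change mainly there, which cannot show a switch. ZBTB7B is high at both ends.

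The members also varied among themselves. The share of EBF1 followed the POU4F score within the members (Pearson r = 0.57 in replicate 1 and 0.40 in replicate 2, over 95 and 106 cells that share a library). ONECUT1 did so less (0.10 and 0.32), and ONECUT1 and EBF1 were only weakly tied to each other (0.17 and 0.10). SCRT1 ran against ONECUT1 among members (-0.37 and -0.43). The lowest 10% of members by ONECUT1 share lay at or below -0.0038 and 0.03 on the log2 scale relative to the median of all kept cells, and the top 10% at or above 0.37 and 0.41. The low end thus reached the level of a typical kept cell.

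The tie between ONECUT1 and the proneural score had opposite signs inside and outside the group. Among members its share correlated negatively with the proneural score (r = -0.40 in replicate 1 and -0.50 in replicate 2), and among all other kept cells positively (0.45 and 0.39). The members are cut off at the top of the proneural score, and the double-high cells above that limit had less ONECUT1 than members. EBF1 showed little relation to the proneural score among members (0.15 and 0.02). OLIG2, which shares its core pattern with the proneural motifs, correlated with it positively in both libraries (0.52 and 0.45). All of these correlations are across cells of 1 library with shared peaks and depth, and no test was made of them.

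List scores gave the share of members that stood out. These scores are not independent of the rule. Across kept cells, that of the ganglion cell list correlated with the POU4F score at 0.52 and 0.50. For the ONECUT and CUX list this correlation was 0.40 and 0.42. In the top 15% of kept cells by the 2 ganglion cell motifs outside the rule were 72.6% of members in replicate 1 (95% interval 62.9% to 80.6%) and 65.1% in replicate 2 (55.6% to 73.5%), against 35.9% and 40.4% of double-high cells, 9.84% and 13.7% of proneural-high cells and 5.76% and 5.72% of cells high for neither. By the ONECUT and CUX list the shares were 55.8% and 62.3% of members, 25.6% and 19.2% of double-high cells, 17.5% and 21.3% of proneural-high cells and 6.81% and 5.43% of the rest. By the MEIS list members (35.8% and 32.1%) were below double-high cells (56.4% and 48.1%) and about level with proneural-high cells (31.7% and 33.2%).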

How the data were processed

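The deposited files hold raw counts: each library is a matrix of whole numbers with 579 motifs in rows and barcodes in columns, and the software version is 1.1.0 per the file headers. Cell Ranger and the build mm10 were used, per the submitters' processing notes. How reads were aligned, peaks called and motifs searched is not given in the sources used here. Replicate 1 held 2422 barcodes and replicate 2 held 3033, and 1828 barcodes occurred in both. Kept cells had at least 300000 motif counts and more than the same barcode in the other library. Doublets were not called, but an alternative left out the deepest 5% of cells. Cell shares used a pseudocount of 0.5 counts.

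Counts were summed per group and library, so that the library and not the cell was the replicate, and tested with edgeR 4.0.16 (R 4.3.3; quasi-likelihood, TMM scaling, library as a term, negative binomial dispersion of 0). The dispersion was set to 0 after estimated values were seen to be unstable on sums of this size; the estimated dispersion is an added alternative. Of 100 motifs simulated at 1.05-fold in members against all other kept cells, with 579 motifs in the fit, 98 were called, as were 100 of 100 at 1.2-fold and 9 of 379 unchanged ones; with an estimated dispersion these were 43, 91 and 4. The simulated motifs were independent of each other. TMM scaling set log2 folds 0.0162 above those from totals alone, in the median. Alternatives used limma 3.58.1 (mean log2 shares) and DESeq2 1.42.0.

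Named motifs were the 12 highest and 12 lowest log2 folds past the threshold, of the same sign in both libraries and at least 10 counts per cell; every motif of the ganglion cell, ONECUT and CUX, TEAD, E2F and TFDP1, and SCRT lists; and the highest or lowest of other lists. Exceptions are marked where named, and some motifs that met the rule are not reported here. Motifs with identical counts (59, in 23 groups) were named once but stayed in counts over all motifs; with each counted once, 198 of 536 were higher and 167 lower against all other kept cells. The cell groups, the 32 motif lists and this rule were chosen with earlier results of these data known.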

Additional observations from a re-analysis of the deposited data

How the results depend on the processing

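The labels pair no groups, so the block was the library itself. With no replicate block, edgeR called 0 motifs higher and 0 lower against all other kept cells and against double-high cells, 34 and 50 against proneural-high cells, and 72 and 60 against cells high for neither, and each named call was lost; folds were alike. Limma on mean log2 shares called 118 higher against all other cells, 139 lower against double-high cells, 103 higher against proneural-high cells and 148 higher against cells high for neither. DESeq2 called 118 higher and 124 lower against double-high cells, and no TMM scaling 105 lower. An estimated dispersion, added after seeing the data, called 0 and 0 against double-high cells and 31 and 24 against proneural-high cells, and of the named motifs lost CUX2, HOXC12, IRF8 and PROX1 against all other cells. Limma lost HOXC11, IRF8, NEUROG2, PAX7, PROX1 and ZEB1 there, DESeq2 IRF8 and NEUROG2, and the middle of the depth range E2F7, IRF8 and NEUROG2. Regressing out the promoter share before ranking, also added then, kept every named call. The cause of the other changes was not tested. Other cut-offs moved the share of POU4F-high cells that were members from 69.0% to 77.6% (top 10% of the POU4F score), 64.8% (top 20%), 33.6% (outside the top 50% of the proneural score) and 100% (no proneural condition, by construction); 0 motifs tied to a score at 0.7 became 21 at 0.5. Over the libraries left out in turn, that share ranged from 67.1% to 70.9%.

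Barcodes found in 1 library only left 2 and 14 members, 12 higher and 11 lower calls, and reversed signs: PROX1 -0.093, ZEB1 -0.043, TEAD1 0.0029, E2F2 0.083, E2F4 -0.037, E2F6 -0.045, MYBL1 0.41, ZBTB7B -0.14, PAX7 -0.13, HIF1A -0.073, CENPB 0.064, FOSL1::JUN 0.025, Pou5f1::Sox2 0.0025, BHLHE23 0.034, LHX6 0.031, BARHL2 -0.0013, Klf1 -0.0019, OLIG2 0.00072 and INSM1 -0.047, none of them past the threshold. E2F4, not called, was -0.0078 without TMM scaling, -0.013 by limma, and from -0.015 to -0.0013 with a library left out. E2F6, not called otherwise, was -0.015 without TMM scaling (edgeR adjusted p = 0.0247), -0.020 by limma, -0.0032 by DESeq2, -0.0024 with rare motifs left out, -0.0012 without the deepest cells, -0.0052 in the middle of the depth range, -0.0075 at the top 10% of the POU4F score, -0.00088 with no proneural condition, -0.0010 with POU4F2 alone, and from -0.023 to -0.0073 with a library left out. TFDP1 was 0.00035 outside the top 50% of the proneural score.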

Other observations

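Some motifs with no list of their own, named here after their values were seen, were also higher in members than in each of the 3 other groups, by the fit with a dispersion of 0. RFX2, a winged-helix factor of the family that drives genes of the cilium, took 95.9 and 95.8 of 100000 counts in members of replicates 1 and 2 against 89.7 and 89.6 in all other kept cells, a log2 fold of 0.11 (SE 0.0070, adjusted p = 1.05e-46 by edgeR). It was above double-high cells by 0.08, proneural-high cells by 0.14 and cells high for neither by 0.10, and 90.5% and 90.6% of members lay above the median of all kept cells. RFX3, RFX4 and RFX5 were among the 55 motifs higher than in each other group.

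Of the 31 motifs of the AP-1 list, 14 were higher and 11 lower in members (12 and 10 of 28 with distinct counts), with a median of 7.1e-05. Over all motifs 37.4% were higher and 31.6% lower. JUN, in its form that prefers the CRE-like pattern, took 20.4 and 20.2 in members against 18.7 and 18.5 (log2 fold 0.14), while FOSL1::JUN took 11.6 and 11.4 against 12.7 and 12.5 (log2 fold -0.12). EOMES, a T-box factor of some ganglion cell types, was lower, at 7.84 and 7.90 against 8.41 and 8.38 (log2 fold -0.08); of the 12 T-box motifs 7 were higher and 2 lower, but 5 of the 12 had the same counts, and of the 8 distinct motifs 3 were higher and 2 lower.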
